A study of Mus musculus with 45 samples.

Results

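The Hox genes were examined as a set across 4 tissues of the 4T1 breast cancer series. Members were all gene symbols of the count table made of Hox, a cluster letter from a to d and a paralog number, which gave 39 genes out of 55367 symbols: 11 Hoxa, 10 Hoxb, 9 Hoxc and 9 Hoxd genes. The rule reads symbols alone.

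RNA was sequenced from scaffolds, lungs, spleens and primary tumors of female Balb/c mice on day 14. Three-prime tag libraries were made from 45 samples in 15 groups, with 3 samples per group. Tumor-bearing mice had received an orthotopic inoculation of 67NR, 4T07 or 4T1 cells, 3 lines that descend from a single mammary tumor and are described as nonmetastatic, invasive without metastasis, and metastatic. Porous polycaprolactone scaffolds, which serve as an engineered niche, had been placed beneath the skin of the upper back of young adult mice before the cells were injected. Control mice carried a scaffold too but no tumor, so that the groups were control, 67NR, 4T07 and 4T1 scaffolds, lungs and spleens, and 67NR, 4T07 and 4T1 tumors. A tumor library holds RNA of the inoculated line together with RNA of the host cells of mammary fat pad 4, and each line stands for a single cell line. In these bulk samples, fewer cells of a type and less RNA per cell cannot be told apart.

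Hox genes encode homeodomain transcription factors that lie side by side in 4 clusters, Hoxa, Hoxb, Hoxc and Hoxd. In the embryo, genes at the 3′ end of a cluster, with low paralog numbers, are switched on toward the head, and genes at the 5′ end, with high numbers, toward the tail and the tips of the limbs. Fibroblasts, smooth muscle and other stromal cells of adult organs keep much of this regional pattern, which is why the set of Hox genes a tissue expresses is often read as a positional code. Blood-forming progenitors use Hox genes as well, chiefly of the a and b clusters, and lose them as they mature. The proteins bind DNA together with cofactors of the TALE class, the Pbx, Meis and Pknox proteins.

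Levels are given as CPM, the counts of a gene scaled to a common library size. A 3′ tag library yields about 1 tag for each transcript whatever its length, so the levels were not divided by length. Library totals ran from 3491888 to 8175380 counts with a median of 5149589, and the 39 genes together took from 115 counts in a spleen to 3265 counts in a tumor. A library with 3 counts, taken as the smallest level it can show, corresponds to 0.367 to 0.859 CPM. The labelled tissues were checked against markers. Sftpc, a surfactant gene of alveolar cells, was at 11741 to 13286 CPM in control lungs and 0.692 to 4.10 CPM in control spleens, and Tlx1, a gene of the spleen anlage, was at 33.0 to 39.0 CPM in control spleens and 0.324 to 0.541 CPM in control lungs.

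Some 4T07 libraries stood apart on these markers. The 3 lungs of 4T07 mice held Tlx1 at 14.6, 13.8 and 11.1 CPM, against 16.7, 11.9 and 16.3 CPM in the spleens of 4T07 mice. Their Sftpc was at 2855, 1798 and 3620.5 CPM. Tlx1 thus lay near the level of the spleens of the same group, and the summed lung epithelial markers lay below those of every other lung. Spleens of 4T07 mice held Rhox5, which was at 653 to 889.6 CPM in 67NR tumors, at 77.6, 87.8 and 27.8 CPM, against 19.3, 5.62 and 2.54 CPM in the 4T07 tumors and 0 in the control spleens. The first 4T07 scaffold held Tlx1 at 4.65 CPM, against 0.393 and 0.466 CPM in the other two, and the first 4T07 tumor held it at 4.42 CPM, against 0.726 and 0 CPM. Whether RNA of another tissue was present in these libraries was not tested. All 3 lungs of 4T07 mice show the pattern, so comparisons with them cannot be repeated without it, and results on 4T07 scaffolds and tumors are also given without the first library.

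Of the 39 genes, 27 were detected in at least 1 group, meaning more than 3 counts in each of its 3 libraries, and Hoxa5 and Hoxb4 were detected in all 15 groups. The other 12 were detected in none. Among these, Hoxa11, Hoxa13, Hoxb13, Hoxc11, Hoxc12, Hoxd12 and Hoxd13 each had fewer than 12 counts over all 45 libraries, and Hoxd13 had 0. Hoxb1 (91 counts over all libraries), Hoxd1 (80), Hoxa4 (54), Hoxc13 (46) and Hoxd3 (20) had scattered counts. Paralog groups 11 to 13, which pattern the distal limb, the genital tubercle and the tail, were thus nearly empty apart from Hoxd11. The number of detected genes was highest in 4T07 tumors with 21, 4T07 scaffolds with 20 and 4T1 tumors with 20, and lowest in 4T1 spleens with 4. With all libraries thinned to the lowest total these numbers were 18 in 4T07 tumors, 13 in 4T07 scaffolds, 19 in 4T1 tumors and 4 in 4T1 spleens, so that 4T07 scaffolds then lay below the 14 to 16 of the other scaffold groups. Spleens held a median of 209 Hox counts against 1471 in tumors, at totals that covered a like range (3491888 to 5794832 in spleens and 3542368 to 5511691 in tumors), and the medians were 1714 in lungs and 767.5 in scaffolds.

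**Figure D1:**
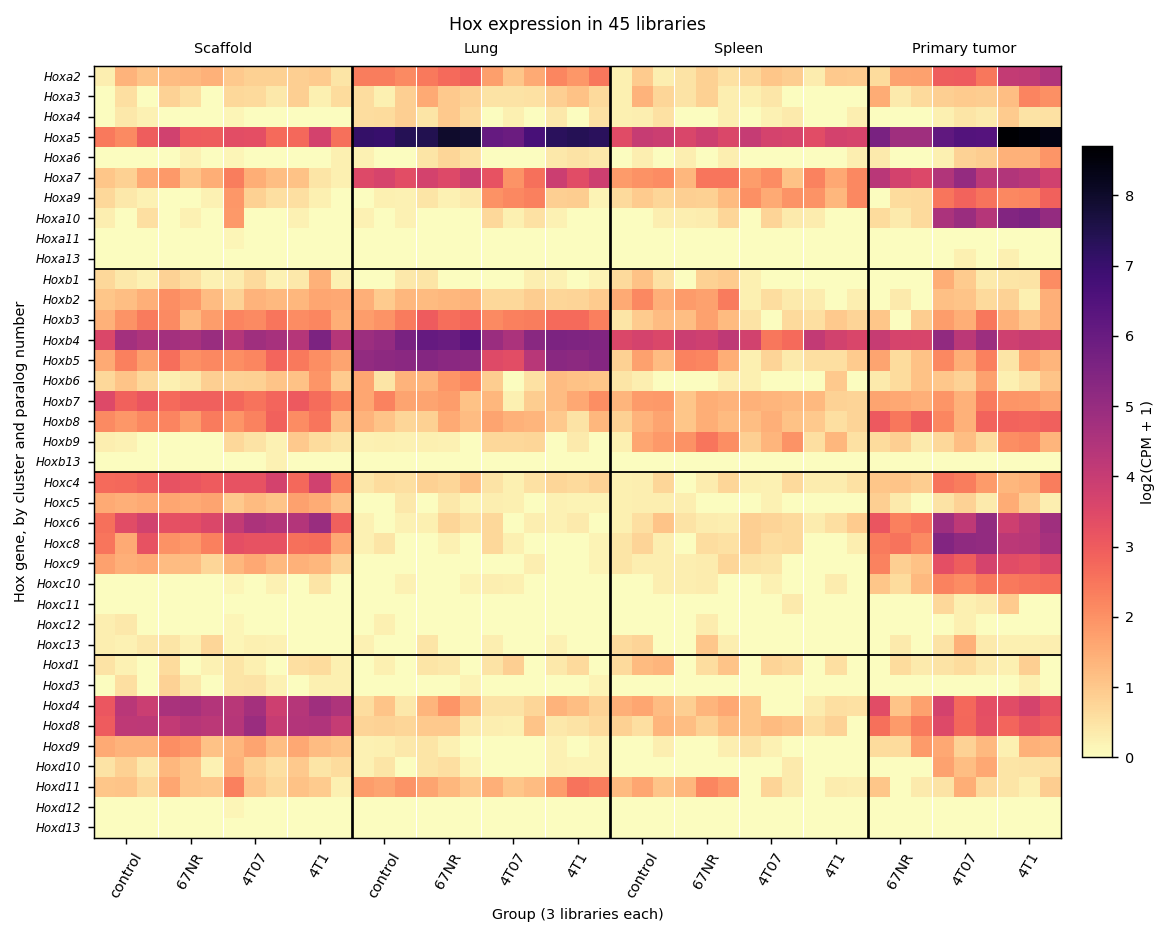
Levels of Hox genes (rows, ordered by cluster and paralog number) in the 45 libraries (columns, grouped by tissue and group), as log2(CPM + 1). Among scaffolds, lungs and spleens, lungs stand out for Hoxa5, Hoxb4 and Hoxb5. Scaffolds stand out there for Hoxc4, Hoxc5, Hoxc6, Hoxc8, Hoxc9, Hoxd4, Hoxd8 and Hoxd9. Tumors of 4T1 and 4T07 stand out for Hoxa10 and lie above scaffolds for Hoxc8 and Hoxc9, and 4T1 tumors hold the most Hoxa5. Rows from paralog 11 upward are nearly blank except Hoxd11.

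How the Hox set differs between organs was first asked in the healthy mice. Scaffolds of control mice held a Hox profile spread over all 4 clusters. Of their summed Hox CPM, 38.5% ± 2.63 (SD, n = 3) came from Hoxb, 29.4% ± 5.46 from Hoxd, 23.8% ± 4.30 from Hoxc and 8.31% ± 1.81 from Hoxa genes. Control lungs took 64.8% ± 1.38 from Hoxa and 33.0% ± 1.36 from Hoxb genes, and only 1.77% ± 0.281 from Hoxd and 0.419% ± 0.0482 from Hoxc genes. In control spleens Hoxb genes gave 46.1% ± 0.682, Hoxa 37.7% ± 1.37, Hoxd 11.3% ± 0.706 and Hoxc 4.96% ± 0.393. The summed Hox level was 246 ± 31.2 CPM in control lungs, 102 ± 23.3 in control scaffolds and 47.9 ± 9.85 in control spleens. Lungs thus held the most Hox transcripts, drawn almost wholly from the a and b clusters, and the Hoxc and Hoxd shares were highest in the scaffolds.

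Hoxa5, which is required for normal lung and tracheal development, led the lung. Its level was 135, 128 and 165 CPM in the 3 control lungs, 4.40, 3.33 and 6.93 CPM in the control scaffolds and 9.71, 14.8 and 13.8 CPM in the control spleens. The 3 groups did not overlap. Scaffolds were lower than lungs by edgeR's quasi-likelihood test with a log2 difference of -4.64 ± 0.24 (SE), adjusted p = 8.81e-10, and lungs were higher than spleens by 3.45 ± 0.22 (SE), adjusted p = 5.93e-09. Hoxb5, which acts with Hoxa5 in branching of the lung, was at 33.1, 35.2 and 37.2 CPM in lungs, 1.89, 3.96 and 2.36 CPM in scaffolds and 0.777, 2.31 and 1.29 CPM in spleens. Lungs stood above both other tissues, with log2 differences of -3.44 ± 0.28 for scaffolds against lungs (adjusted p = 1.01e-07) and 4.56 ± 0.32 for lungs against spleens (adjusted p = 1.48e-08). Hoxa2, a gene of the branchial arches and hindbrain, was at 4.18, 4.15 and 3.40 CPM in lungs against 0.21, 1.58 and 1.10 CPM in scaffolds and 0.194, 0.923 and 0.216 CPM in spleens. Hoxa7 was at 10.3, 11.7 and 9.23 CPM in lungs, 1.05, 0.792 and 1.89 CPM in scaffolds and 2.52, 3.00 and 3.23 CPM in spleens, so for both genes every lung was above every library of the other organs.

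Hoxb4 held the highest level in the scaffolds. The genes that set them apart from both other organs were mostly of the Hoxc and Hoxd clusters, with Hoxb7 and Hoxb8 besides. Hoxd4, a gene of the neck vertebrae, was at 7.55, 18.4 and 14.0 CPM in control scaffolds, 0.523, 1.08 and 0.324 CPM in lungs and 1.75, 2.08 and 1.29 CPM in spleens. Hoxd8 was at 7.13, 16.9 and 17.5 CPM in scaffolds, 0.697, 0.721 and 0.647 CPM in lungs and 0.777, 0.461 and 1.51 CPM in spleens. For both genes, all 3 scaffolds lay far above all 6 libraries of the other organs. Against lungs the log2 differences were 4.56 ± 0.43 (SE), adjusted p = 5.27e-07 for Hoxd4 and 4.50 ± 0.43 (SE), adjusted p = 5.16e-07 for Hoxd8. Hoxc6, a gene of the thoracic body wall and mammary region, was at 5.03, 9.50 and 12.6 CPM in scaffolds, with 2 counts in all 3 lungs and 0.194, 0.461 and 1.08 CPM in spleens. The ratio of scaffold to lung counts, scaled to depth, was 82.1 (95% counting interval 22.4 to 684), an interval that covers counting error only. Hoxc8 was at 4.61, 1.90 and 8.34 CPM in scaffolds with 3 counts in the lungs, a ratio of 29.0 (95% counting interval 9.61 to 144), and Hoxc9 was at 2.31, 1.74 and 1.89 CPM with 0 counts in the lungs, which makes it at least 3.83-fold higher. Hoxc4 was at 5.45, 5.70 and 6.45 CPM in scaffolds against 0.349, 0.541 and 0.486 CPM in lungs, Hoxc5 at 1.89, 1.74 and 1.89 CPM with 2 counts in the lungs, and Hoxd9 at 1.89, 1.58 and 1.57 CPM against 0.174, 0.18 and 0.324 CPM. Every one of these genes was higher in the scaffolds than in the lungs and spleens in edgeR's test.

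Promoter sequences are shown for 3 of the genes that differed between organs, so that their start regions can be read beside the levels: Hoxa5 and Hoxa2, higher in the lung than in both other organs, and Hoxd8, higher in the scaffold. Each is a window of 250 bases before and 50 after the RefSeq transcript start on GRCm38.p6, read along the strand of the gene. Capitals mark CCAAT boxes on either strand (CCAAT or ATTGG) and the Pbx-Hox core TGATNNAT on either strand.
Hoxa5, chr6:52204538-52204837, minus strand: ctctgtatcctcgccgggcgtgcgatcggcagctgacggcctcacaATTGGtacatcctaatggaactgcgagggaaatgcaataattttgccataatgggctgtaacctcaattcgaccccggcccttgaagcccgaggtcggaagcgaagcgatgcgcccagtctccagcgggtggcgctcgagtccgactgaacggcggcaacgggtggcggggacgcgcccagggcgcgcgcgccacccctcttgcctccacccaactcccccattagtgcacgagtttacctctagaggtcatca
Hoxa2, chr6:52164782-52165081, minus strand: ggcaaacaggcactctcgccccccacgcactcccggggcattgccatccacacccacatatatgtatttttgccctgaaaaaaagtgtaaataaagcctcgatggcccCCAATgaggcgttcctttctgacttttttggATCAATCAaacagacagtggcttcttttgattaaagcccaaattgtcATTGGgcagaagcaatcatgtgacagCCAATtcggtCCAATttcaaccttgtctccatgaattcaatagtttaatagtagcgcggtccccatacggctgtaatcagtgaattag
Hoxd8, chr2:74704365-74704664, plus strand: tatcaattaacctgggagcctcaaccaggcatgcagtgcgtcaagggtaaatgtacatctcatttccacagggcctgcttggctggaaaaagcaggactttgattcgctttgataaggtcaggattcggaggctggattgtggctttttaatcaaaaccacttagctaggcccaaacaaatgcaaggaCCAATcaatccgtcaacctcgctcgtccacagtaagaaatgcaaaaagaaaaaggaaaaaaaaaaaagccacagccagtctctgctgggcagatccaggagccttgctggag
The Hoxa5 window held 1 CCAAT box and 29 CpG dinucleotides, the Hoxa2 window 4 CCAAT boxes, 1 TGATNNAT and 9 CpG, and the Hoxd8 window 1 CCAAT box and 6 CpG. RefSeq windows were found for 22 of the 39 genes, 24 windows in all. Of these, 62.5% held a CCAAT box against 37.4% of all 32817 windows, 16.7% held TGATNNAT on either strand against 8.86%, and 4.17% held TATAAA along the gene's strand against 8.32%. Their median was 14.5 CpG and 57.6% GC, against 7 CpG and 52.7% GC over all windows. A match is a description of the letters and not evidence of binding.

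Over the whole set, 28 Hox genes passed the filter of more than 10 counts over the 9 control libraries. Between scaffolds and lungs 10 were higher and 5 lower in scaffolds (edgeR adjusted p below 0.05 with more than a 2-fold difference), where 30% of all 21602 genes tested passed. Their median log2 difference was 1.55 against 0 over all genes. The 5 lower genes were Hoxa2, Hoxa5, Hoxa7, Hoxb5 and Hoxd11. The 10 higher genes were Hoxb7, Hoxb8, Hoxc4, Hoxc5, Hoxc6, Hoxc8, Hoxc9, Hoxd4, Hoxd8 and Hoxd9. Hoxb7 was at 10.3, 6.33 and 7.87 CPM in scaffolds and 2.09, 3.79 and 2.10 CPM in lungs, and Hoxb8, which holds myeloid progenitors in an immature state, at 3.36, 2.69 and 3.46 and 1.57, 1.08 and 0.647 CPM. Hoxd11, a gene of the forearm, ran the other way from its cluster neighbours, at 1.05, 1.11 and 0.63 CPM in scaffolds and 2.44, 2.16 and 2.91 CPM in lungs, a call lost in 7 of the alternatives, DESeq2 among them.

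Against spleens, 13 of the 28 genes were higher and 4 lower in scaffolds, where 31.5% of all genes passed, with a median of 1.30 against -0.06 over all genes. Hoxb3 was at 1.68, 2.85 and 4.25 CPM in scaffolds and 0.388, 0.923 and 1.29 CPM in spleens, and the genes Hoxb5, Hoxb7, Hoxb8, Hoxc4, Hoxc5, Hoxc6, Hoxc8, Hoxc9, Hoxd4, Hoxd8, Hoxd9 and Hoxd10 were also higher. The call of Hoxd10 rests on 2, 5 and 2 counts in scaffolds and 0, 0 and 0 in spleens. Only 6 of the alternatives gave it an adjusted p, DESeq2 not among them. The 4 lower genes were Hoxa5, Hoxa7, Hoxb9 and Hoxd1. Hoxb9, which with its paralogs patterns the rib cage and the lactating mammary gland, was at 0.194, 2.08 and 2.59 CPM in spleens, a wide spread, and had 2 counts in the scaffolds. Between lungs and spleens 8 genes were higher and 5 lower in lungs, where 36.8% of all genes passed, with a median of -0.11 against -0.05. Hoxb4, which expands blood stem cells when overexpressed, was at 28.4, 32.3 and 48.1 CPM in lungs, 10.7, 11.8 and 10.8 CPM in spleens and 10.7, 25.7 and 21.7 CPM in scaffolds, and lungs were above spleens by 1.67 ± 0.27 (SE), adjusted p = 0.000105. Hoxa2, Hoxa5, Hoxa7, Hoxb3, Hoxb5 and Hoxb6 were also higher. Hoxa9, Hoxb9, Hoxc9, Hoxd1 and Hoxd4 were lower in lungs, all of them at low counts in the lung (0 to 11 over 3 libraries). Calls that one or another left-out library ended were those of Hoxa7, Hoxb5, Hoxb8 and Hoxd1 between scaffolds and spleens, with Hoxa5 lost without control scaffold 2, and of Hoxa9, Hoxb6, Hoxc9 and Hoxd4 between lungs and spleens, with Hoxb9 lost without control spleen 3. The 3 comparisons share their control groups.

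**Figure D2:**
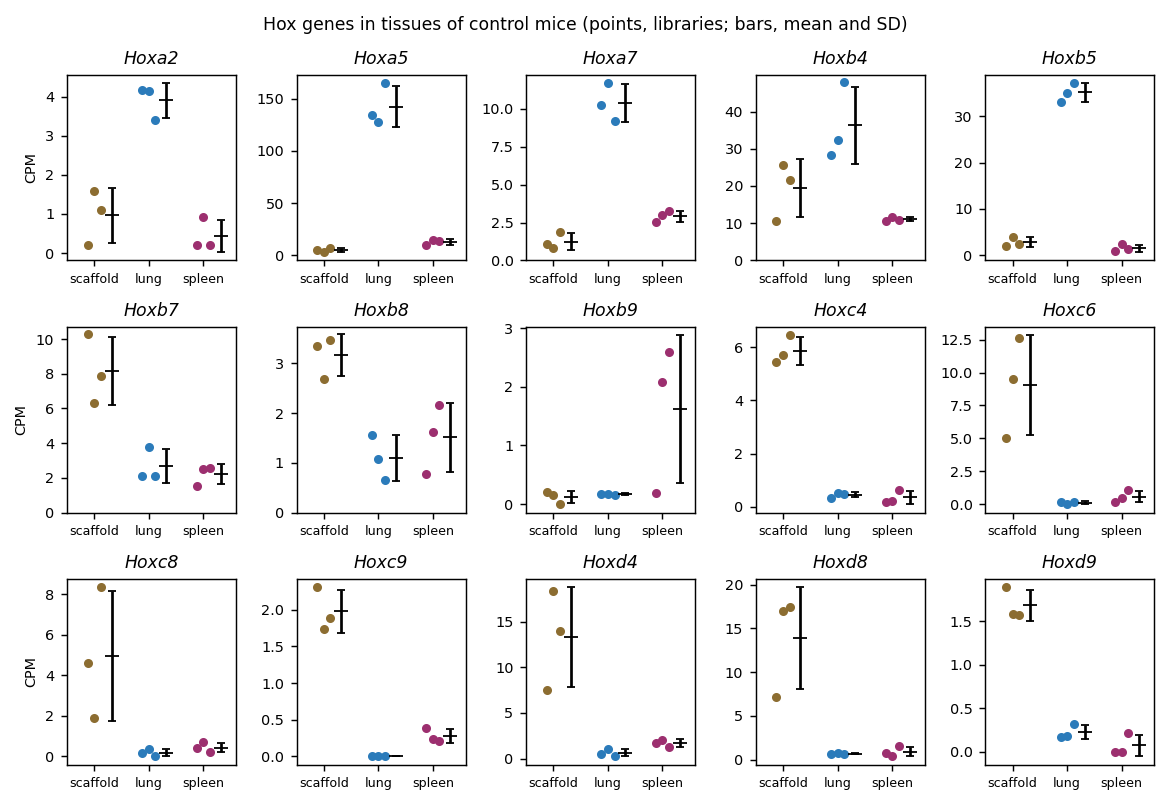
Levels of 15 Hox genes in the scaffolds, lungs and spleens of control mice, in CPM on a linear axis of its own for each gene. Points are the 3 libraries of a tissue and bars their mean and SD. Lungs lie highest for Hoxa2, Hoxa5, Hoxa7, Hoxb4 and Hoxb5, and scaffolds for Hoxb7, Hoxb8 and the Hoxc and Hoxd genes shown.

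The tissue differences came with different stroma. Summed over 7 fibroblast markers, control scaffolds held 8520.5 to 12229 CPM, lungs 1372 to 1576 CPM and spleens 393 to 436 CPM, and 5 of the 7 were higher in scaffolds than in lungs. Summed over 5 endothelial markers, lungs held 2677 to 2840.3 CPM against 238 to 279 CPM in scaffolds. The part of these cell types in the Hox differences was not tested. Of 8 TALE cofactors tested, 4 were lower in scaffolds than in lungs and 0 higher, where 30% of all genes passed. The lower genes were led by Pknox2 (log2 difference -3.50 ± 0.30), Meis1 (-3.50 ± 0.18) and Meis2 (-1.61 ± 0.18). Lungs were higher than spleens in 4 of 8, among them Pknox2 (4.06 ± 0.32) and Meis1 (2.30 ± 0.17), where 36.8% of all genes passed. Of 7 noncoding genes of the clusters tested between scaffolds and lungs, where 30% of all genes passed, Hoxd3os1 was higher in scaffolds (4.22 ± 0.45). Hoxb3os (-1.53 ± 0.45), Hoxaas3 (-1.34 ± 0.44) and Hotairm1 were lower. Hoxd3os1 overlaps Hoxd3, Hoxb3os overlaps Hoxb2 and Hoxb3, and Hoxaas3 overlaps Hoxa3, Hoxa5 and Hoxa6. Of the 39 Hox genes, 20 overlap another gene in RefSeq and 10 overlap another Hox gene, and the strand setting of the counting is not given, so tags of overlapping genes cannot be told apart.

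Where along the clusters the transcripts lie was summarised by the mean paralog number, weighted by CPM. It was 5.69 ± 0.237 (SD, n = 3) in control scaffolds, 4.95 ± 0.0503 in control lungs and 5.22 ± 0.0888 in control spleens. Paralog groups 4 and 5 alone gave 87.5% ± 1.69 of the Hox CPM in control lungs, 58.6% ± 4.09 in spleens and 46.7% ± 5.51 in scaffolds. Groups 6 to 8 gave 40.5% ± 4.72 in scaffolds, 18.5% ± 2.56 in spleens and 6.85% ± 1.53 in lungs. Groups 9 to 13 were a small share in every control organ, at 6.49% ± 2.61 in scaffolds, 9.76% ± 1.22 in spleens and 1.42% ± 0.0384 in lungs. Among tumors the mean paralog number was 5.75 ± 0.0825 for 67NR, 6.24 ± 0.103 for 4T07 and 5.62 ± 0.0291 for 4T1. The 4T1 value is pulled down by Hoxa5, which made up 65.4% ± 3.78 of its Hox CPM, and was 6.81 ± 0.216 with the leading gene left out, against 6.72 ± 0.199 for 4T07 and 6.13 ± 0.0931 for 67NR. These means are descriptions of the libraries without a test.

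**Figure D3:**
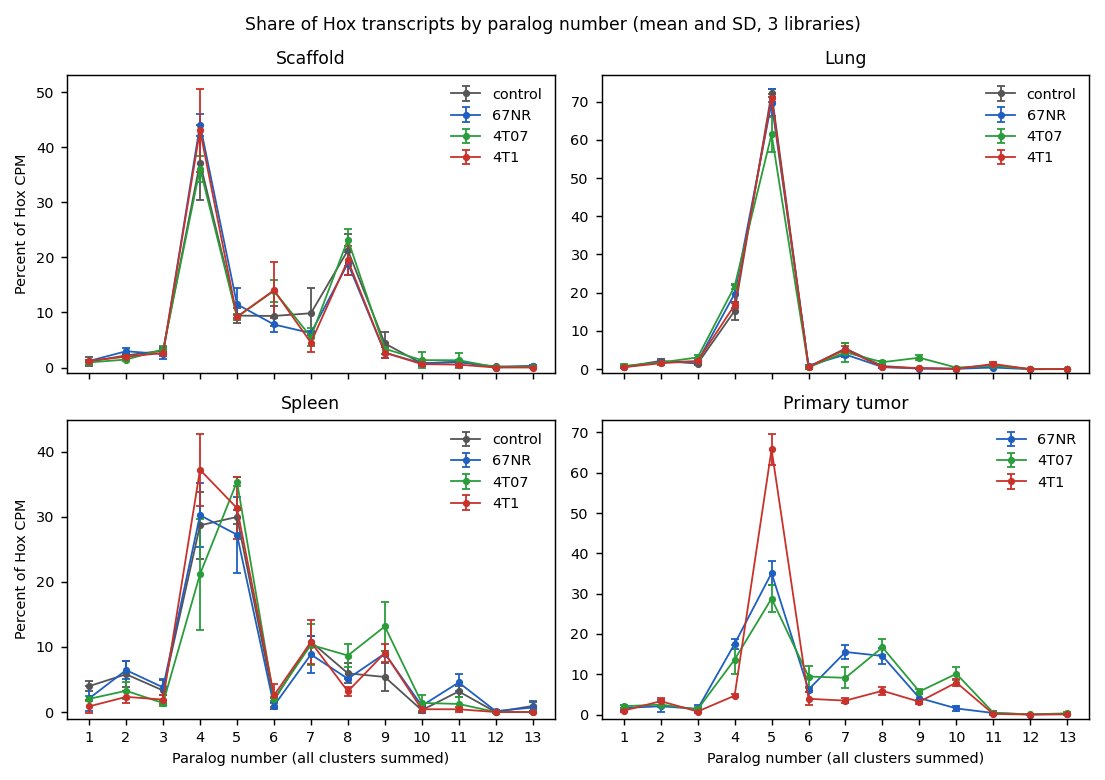
Share of the summed Hox CPM (percent, vertical) by paralog number from 1 to 13 (horizontal) in scaffolds, lungs, spleens and tumors, as mean and SD of 3 libraries per group. Lungs peak at paralog 5 in each of the 4 groups, scaffolds have peaks at 4 and at 8, and the tumors of the 3 lines differ at paralogs 5, 8 and 10.

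Primary tumors were compared to ask how the 3 sister lines differ. Tumors of 4T07 and 4T1 held more Hox transcripts than 67NR tumors, the sums being 101 ± 29.6 CPM for 67NR, 290.5 ± 8.47 CPM for 4T07 and 568 ± 30.8 CPM for 4T1. The profiles also differed in kind. In 67NR tumors 52.1% ± 2.75 came from Hoxa, 24.3% ± 2.82 from Hoxb and 14.0% ± 0.661 from Hoxc genes, in 4T07 tumors 50.0% ± 8.43, 14.9% ± 3.99 and 27.7% ± 2.77, and in 4T1 tumors 81.0% ± 3.56, 5.41% ± 0.654 and 10.2% ± 2.74. Hoxd genes gave 9.65% ± 3.26, 7.46% ± 1.84 and 3.40% ± 0.648 in the same order.

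Hoxa10, a gene of the lumbar region and the uterus that also acts in myeloid progenitors, separated 67NR from the other 2 lines. It was at 0.538, 0.28 and 0.565 CPM in 67NR tumors, 22.5, 28.8 and 19.5 CPM in 4T07 tumors and 41.9, 45.7 and 32.4 CPM in 4T1 tumors. The 67NR tumors had 5 counts in all, and the 3 lines did not overlap. By edgeR the log2 difference from 67NR was 5.36 ± 0.37 (SE), adjusted p = 6.51e-08 in 4T07 and 6.16 ± 0.36 (SE), adjusted p = 6.84e-09 in 4T1 tumors. Outside tumors, Hoxa10 was at 2.57 CPM in the first 4T07 scaffold and at or below 0.69 CPM in each of the other 35 libraries. RefSeq gives it 2 promoter windows, printed to show the start regions of this gene.
Hoxa10, chr6:52234890-52235189, minus strand: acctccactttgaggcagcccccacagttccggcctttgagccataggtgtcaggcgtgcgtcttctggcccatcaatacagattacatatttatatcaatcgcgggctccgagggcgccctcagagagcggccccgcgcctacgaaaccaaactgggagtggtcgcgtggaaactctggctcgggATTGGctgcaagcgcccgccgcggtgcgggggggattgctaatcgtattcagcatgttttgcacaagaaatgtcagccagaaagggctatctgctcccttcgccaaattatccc
Hoxa10, chr6:52240805-52241104, minus strand: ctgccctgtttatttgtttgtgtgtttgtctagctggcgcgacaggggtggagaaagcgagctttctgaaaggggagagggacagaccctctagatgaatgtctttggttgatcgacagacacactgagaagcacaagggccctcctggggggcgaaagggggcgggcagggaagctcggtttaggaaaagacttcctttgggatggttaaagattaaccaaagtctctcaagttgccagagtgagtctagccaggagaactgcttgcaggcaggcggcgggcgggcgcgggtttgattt
The first window held 1 CCAAT box and 21 CpG, and the second held none of the 3 motifs searched and 12 CpG. The tag counts do not tell which start was used.

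Hoxa9, the neighbour of Hoxa10 and a regulator of myeloid progenitors, was at 0, 0.56 and 0.565 CPM in 67NR, 4.62, 6.17 and 4.80 CPM in 4T07 and 3.47, 3.69 and 6.26 CPM in 4T1 tumors. It was higher than in 67NR by 3.48 ± 0.61 (SE), adjusted p = 0.000348 in 4T07 and 3.31 ± 0.62 (SE), adjusted p = 0.000759 in 4T1. Of the Hoxc genes, Hoxc8, which patterns the thoracic skeleton, was at 4.30, 4.76 and 3.39 CPM in 67NR, 41.9, 34.8 and 32.5 CPM in 4T07 and 17.6, 18.4 and 24.2 CPM in 4T1 tumors. Its log2 differences from 67NR by edgeR were 2.88 ± 0.25 (SE), adjusted p = 5.4e-07 in 4T07 and 2.07 ± 0.25 (SE), adjusted p = 1.73e-05 in 4T1. Hoxc9 was at 3.76, 0.839 and 1.13, then 8.83, 6.89 and 11.9, then 9.33, 8.61 and 10.8 CPM in the same order of lines. Hoxc10 was at 1.07, 0.56 and 1.41, then 3.81, 3.27 and 4.52, then 4.39, 4.71 and 5.18 CPM, and Hoxc6 at 7.79, 3.92 and 4.80, then 27.3, 17.1 and 32.5, then 13.3, 17.6 and 26.8 CPM. In these 4 Hoxc genes, each 4T07 and 4T1 tumor was above each 67NR tumor.

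Hoxa5, known in breast epithelium as an activator of the Trp53 gene, was highest in 4T1. It was at 48.6, 26.9 and 27.1 CPM in 67NR tumors, 70.2, 84.9 and 84.7 CPM in 4T07 tumors and 414, 371 and 331 CPM in 4T1 tumors, without overlap. The log2 difference of 4T1 was 3.25 ± 0.22 (SE), adjusted p = 2.85e-08 from 67NR and 2.27 ± 0.20 (SE), adjusted p = 3.61e-06 from 4T07. Hoxa2 took the same order, at 0.538, 2.24 and 2.26 CPM in 67NR, 6.82, 7.08 and 4.52 CPM in 4T07 and 15.5, 16.6 and 21.2 CPM in 4T1 tumors, and 4T1 was above 4T07 by 1.56 ± 0.32 (SE), adjusted p = 0.00376. Hoxa3 was at 1.88, 0.28 and 0.565 CPM in 67NR, 0.803, 0.907 and 0.847 CPM in 4T07 and 1.28, 3.69 and 3.02 CPM in 4T1 tumors. Hoxa6 had 1 count in the 67NR tumors and 1.65, 1.64 and 2.81 CPM in 4T1, a count ratio of 21.7 (95% counting interval 3.61 to 885). Hoxb9 was at 0.538, 0.839 and 0.282 CPM in 67NR, 0.602, 1.27 and 0.564 CPM in 4T07 and 3.11, 3.48 and 1.51 CPM in 4T1 tumors, and Hoxa7 at 18.3, 12.0 and 10.4, then 20.5, 32.3 and 17.5, then 20.5, 18.0 and 13.0 CPM, a gene in which no pair of lines passed.

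Counted over the set, 31 Hox genes were tested among tumors. Against 67NR, 12 were higher and 0 lower in 4T07, where 28.9% of all 20508 genes passed, and 13 were higher and 0 lower in 4T1, where 20.7% passed. The median log2 difference was 1.63 in 4T07 against 0.16 over all genes, and 1.31 in 4T1 against 0.09. Both comparisons use the same 3 67NR tumors. Those higher in 4T07 included Hoxa2, Hoxa9, Hoxa10, Hoxb1, Hoxb3, Hoxc4, Hoxc6, Hoxc8, Hoxc9, Hoxc10 and Hoxd10. Those higher in 4T1 included Hoxa2, Hoxa4, Hoxa5, Hoxa6, Hoxa9, Hoxa10, Hoxb1, Hoxb9, Hoxc6, Hoxc8, Hoxc9 and Hoxc10. Hoxd10, a known target of the metastasis-linked microRNA miR-10b, had 0 counts in the 67NR tumors and was at 2.21, 1.27 and 1.98 CPM in 4T07, at least 2.19-fold higher, and at 0.366, 0.41 and 0.432 CPM in 4T1. Between 4T1 and 4T07, 3 genes passed, all higher in 4T1 (Hoxa2, Hoxa5 and Hoxb9), where 8.61% of all genes passed, with a median of -0.18 against -0.05. The calls of Hoxb1, Hoxb3 and Hoxc4 in 4T07, of Hoxa4, Hoxb1 and Hoxb9 in 4T1 against 67NR, and of Hoxb9 in 4T1 against 4T07 ended when one or another single tumor of either line was left out. Without the first 4T07 tumor the 4T07 count was 10 higher and 0 lower, and the count between 4T1 and 4T07 was 2. With library totals in place of TMM factors, 2 were higher and 1 lower between 4T1 and 4T07. Hoxa2 and Hoxa5 kept their calls there, Hoxb9 lost its call, and the lower gene had none with TMM factors.

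Fibroblast, epithelial and neutrophil markers also differed between the lines. Whether their RNA came from the inoculated line or from host cells cannot be told apart in these bulk samples. The 7 fibroblast markers summed to 948 to 1194 CPM (67NR), 4829 to 7156 CPM (4T07) and 5757 to 8890.0 CPM (4T1), with 6 and 5 of 7 higher than in 67NR. The 7 epithelial and mammary markers summed to 24.0 to 34.7, 179 to 244 and 1008 to 1119 CPM in the same order, with 6 and 7 of 7 higher than in 67NR, and the 7 neutrophil markers to 16.4 to 352, 969.7 to 5216 and 495 to 779 CPM. Their part in the Hox differences was not tested. Of 9 TALE cofactors tested, the same 3 were higher than in 67NR in both lines, among them Pknox2 (log2 difference 3.86 ± 0.95 in 4T07 and 4.19 ± 0.92 in 4T1) and Meis3 (2.77 ± 0.74 and 2.98 ± 0.73). Of 6 noncoding genes of the clusters tested, Halr1 was higher in 4T07 than in 67NR (3.05 ± 0.84), and Hoxaas3, which overlaps Hoxa5, was higher in 4T1 (1.54 ± 0.33). Of 27 Polycomb, Trithorax and Cdx regulators tested, the classes that keep Hox genes off or on, 2 were higher and 3 lower in 4T07 and 2 higher and 0 lower in 4T1, which is 18.5% and 7.41% of them and below the 28.9% and 20.7% of all genes that passed.

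**Figure D4:**
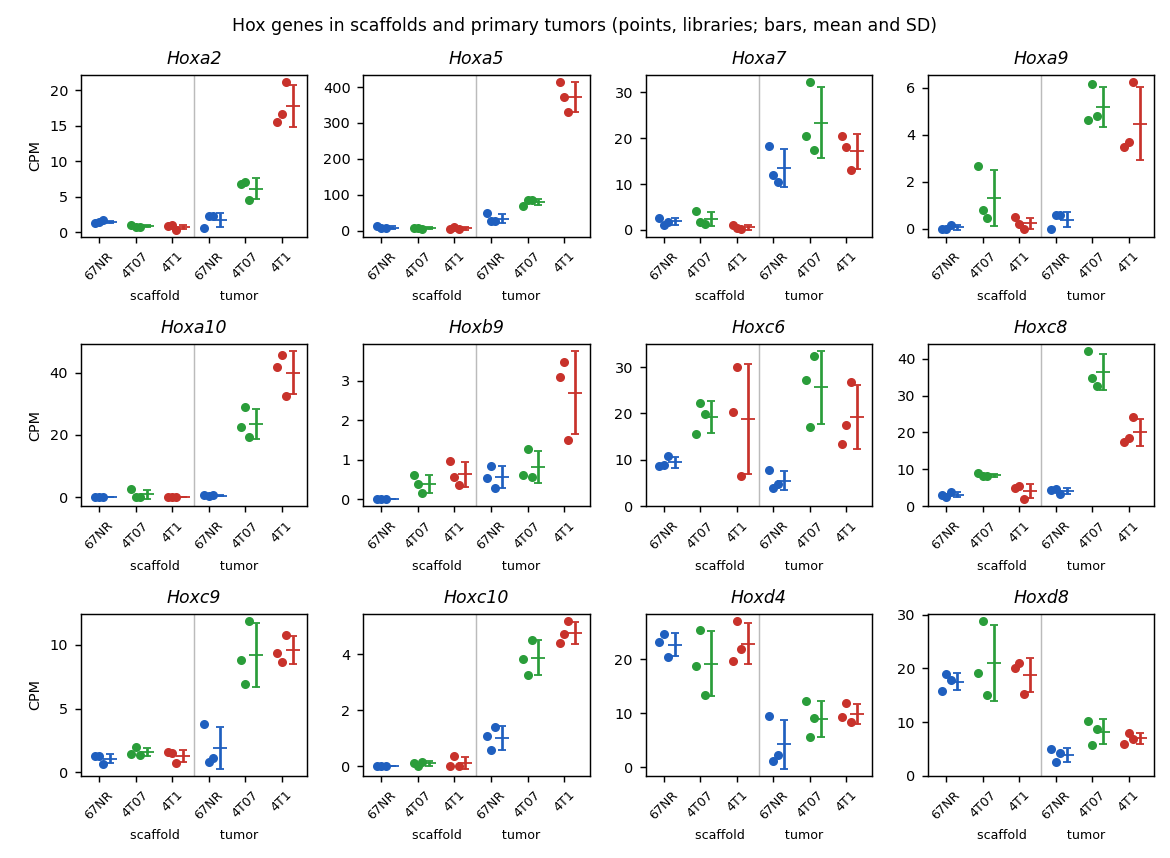
Levels of 12 Hox genes in the scaffolds and primary tumors of 67NR, 4T07 and 4T1 mice, in CPM on a linear axis of its own for each gene. Points are the 3 libraries of a group and bars their mean and SD. Hoxa10 is near the floor in 67NR tumors and in scaffolds other than the first 4T07 scaffold, which is at 2.57 CPM. It is at 19.5 to 45.7 CPM in 4T07 and 4T1 tumors, and Hoxa5 reaches 331 to 414 CPM in 4T1 tumors.

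The scaffold beneath the skin of the back and the tumor in mammary fat pad 4 were next compared within each line. Tumors held more Hoxa5 and Hoxa7 and less Hoxc4, Hoxd4 and Hoxd8 than scaffolds in all 3 lines. Hoxa5 was at 12.9, 7.06 and 6.88 CPM in 67NR scaffolds, 9.17, 8.85 and 5.44 CPM in 4T07 scaffolds and 5.71, 12.1 and 5.03 CPM in 4T1 scaffolds, and tumors were above them by 1.94 ± 0.29 (SE), adjusted p = 6.49e-06 in 67NR, 3.15 ± 0.29 (SE), adjusted p = 1.1e-08 in 4T07 and 5.49 ± 0.31 (SE), adjusted p = 3.52e-12 in 4T1. Hoxa7 was at 2.59, 1.12 and 1.80 CPM in 67NR scaffolds, 4.16, 1.77 and 1.24 CPM in 4T07 scaffolds and 1.14, 0.373 and 0.18 CPM in 4T1 scaffolds, with log2 differences of 2.89 ± 0.42, 3.03 ± 0.39 and 4.69 ± 0.49 in the tumors. Both genes were thus higher in every tumor than in every scaffold of the same line.

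Hoxd8 went the other way. It was at 15.9, 18.9 and 17.9 CPM in 67NR scaffolds and 5.11, 2.52 and 4.23 CPM in 67NR tumors, at 19.1, 28.9 and 15.1 and 10.2, 5.81 and 8.75 CPM in 4T07, and at 20.1, 21.1 and 15.3 and 6.03, 7.99 and 6.91 CPM in 4T1, with log2 differences of -2.14 ± 0.30 (SE), adjusted p = 3.48e-06 in 67NR, -1.55 ± 0.27 (SE), adjusted p = 8.86e-05 in 4T07 and -1.57 ± 0.27 (SE), adjusted p = 6.68e-05 in 4T1. Hoxd4 was at 23.1, 24.6 and 20.3 CPM in 67NR scaffolds and 9.41, 1.12 and 2.26 CPM in the tumors, at 18.7, 25.4 and 13.4 and 12.2, 5.62 and 9.03 CPM in 4T07, and at 19.6, 27.0 and 21.9 and 9.33, 11.9 and 8.42 CPM in 4T1. Hoxc4 was at 8.31, 7.86 and 7.04 CPM in 67NR scaffolds and 1.07, 1.12 and 0.847 CPM in the tumors, at 8.32, 8.26 and 12.1 and 4.82, 4.17 and 2.54 CPM in 4T07, and at 5.71, 12.9 and 3.95 and 1.46, 1.64 and 4.10 CPM in 4T1, where the ranges overlapped. The log2 differences of Hoxc4 were -2.89 ± 0.49, -1.48 ± 0.37 and -1.77 ± 0.40, in that order.

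Of the genes with paralog numbers 9 and 10, Hoxa9, Hoxa10, Hoxc9 and Hoxc10 were higher in the tumors of both 4T07 and 4T1, Hoxb9 in those of 67NR and 4T1 and Hoxc10 in those of 67NR, while Hoxd9 passed in no line and Hoxd10 was lower in 67NR. In 4T1, Hoxa10 had 1 count in the 3 scaffolds and 602 in the tumors, a ratio of 685 (95% counting interval 123 to 27118). In 4T07 it was at 2.57, 0 and 0 CPM in scaffolds, all 21 of the counts being in the first, and tumors were above by 4.33 ± 0.54 (SE), adjusted p = 1.24e-06. Without that scaffold the others had 0 counts and the gene still passed in edgeR. Hoxa9 was higher in 4T07 tumors than in their scaffolds by 1.70 ± 0.54 (SE), adjusted p = 0.0197, and by 2.83 with an adjusted p of 0.00151 without the same scaffold. Hoxc10 had few counts in scaffolds, with 0 counts in the 67NR scaffolds (at least 1.99-fold higher in 67NR tumors), 2 in the 4T07 scaffolds (ratio 37.2 (95% counting interval 9.80 to 315)) and 2 in the 4T1 scaffolds (ratio 40.4 (95% counting interval 10.8 to 340.2)). Hoxc9 was higher in 4T07 tumors by 2.30 ± 0.39 and in 4T1 tumors by 2.74 ± 0.41, and Hoxc8 by 1.90 ± 0.25 and 2.13 ± 0.27. In 67NR, the corresponding values of Hoxc9 were 3.76, 0.839 and 1.13 CPM in tumors and 1.29, 1.28 and 0.655 CPM in scaffolds, and neither Hoxc8 nor Hoxc9 passed. Hoxb9 had 6 counts in the 67NR tumors and 0 in the 67NR scaffolds.

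Of 32 Hox genes tested, 4 were higher and 10 lower in 67NR tumors than in 67NR scaffolds, where 32.4% of all 23778 genes passed. In 4T07 the count was 9 higher and 4 lower, where 18.8% passed, and 10 higher and 4 lower without the first 4T07 scaffold or without the first 4T07 tumor. In 4T1 it was 13 higher and 6 lower, where 23.7% passed. The medians were -0.39, 0.60 and 0.32 on the log2 scale, against -0.24, 0.01 and -0.02 over all genes. One or another left-out library ended the calls of Hoxb3, Hoxb4 and Hoxb5 in 67NR, of Hoxa9 and Hoxd4 in 4T07 and of Hoxa3, Hoxb5 and Hoxb9 in 4T1. Hoxc5 was lost without 67NR tumor 3, Hoxb7 without 4T07 tumor 2 in 4T07 and without 4T1 scaffold 1 in 4T1, and Hoxb4 without 4T1 scaffold 2 in 4T1. The 10 lower genes in 67NR tumors were Hoxb2, Hoxb3, Hoxb4, Hoxb5, Hoxb7, Hoxc4, Hoxc5, Hoxd4, Hoxd8 and Hoxd10. In that line, Hoxb2 had 1 count in the tumors against 3.14, 2.57 and 1.31 CPM in the scaffolds, and Hoxb7 was at 2.15, 1.96 and 1.69 against 5.54, 6.42 and 6.55 CPM. The 7 fibroblast markers were all lower in 67NR tumors than in 67NR scaffolds (12025 to 13933 CPM in scaffolds), and 5 of 7 were lower in 4T1 tumors (10882 to 17636 CPM in scaffolds), and their part in the Hox differences was not tested. The site of the tissue and its cell make-up cannot be told apart in this design.

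Whether a tumor elsewhere changes the Hox profile of the engineered niche was asked in the scaffolds. Hox genes of the scaffold did not pass in any of 4 comparisons. Of 29 genes tested by edgeR at an adjusted p under 0.10, 0 passed for 67NR against control (0% of all 22156 genes passed), 0 for 4T07 against control (7.44% passed), 0 for 4T1 against control (0.0226% passed) and 0 for 4T1 against 4T07 (1% passed). At an unadjusted p under 0.05 the counts were 3, 2, 5 and 4, and DESeq2 also called 0 in each. The share of all genes under that unadjusted threshold was not taken, here or in the later comparisons. Without a count filter 4 were lower in 4T1 than in 4T07 scaffolds, and with library totals in place of TMM factors 1 was higher in 4T07 than in control scaffolds. The median log2 differences were 0.32, 0.46, 0.13 and -0.25, against 0.01, 0.04, 0.01 and -0.02 over all genes. The 3 comparisons with control use the same control scaffolds. The largest level, Hoxb4, was at 10.7, 25.7 and 21.7 CPM in control, 25.5, 23.1 and 29.8 CPM in 67NR, 19.6, 27.3 and 23.9 CPM in 4T07 and 19.8, 45.5 and 19.4 CPM in 4T1 scaffolds, with overlapping ranges. Hoxc6 was at 15.5, 22.2 and 19.9 CPM in 4T07 and 20.2, 30.0 and 6.46 CPM in 4T1 scaffolds, against 5.03, 9.50 and 12.6 CPM in control and 8.68, 8.99 and 10.8 CPM in 67NR scaffolds. Its log2 difference from control was 0.94 ± 0.38 in 4T07 (unadjusted p = 0.0241, adjusted p = 0.122 in edgeR). Without control scaffold 3 the count for 4T07 was 2, and without 4T1 scaffold 1 the count for 4T1 against 4T07 was 1.

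The first 4T07 scaffold carried most of the Hoxa7, Hoxa9, Hoxa10 and Hoxd11 counts of its group. Its total was also the largest of the group, 8175380 counts against 5087455 and 6438184. Scaled to depth, Hoxa7 was at 4.16 CPM against 1.77 and 1.24 CPM, and Hoxa9 at 2.69 CPM against 0.786 and 0.466 CPM. Hoxa10 was at 2.57 CPM against 0 and 0 CPM, and Hoxd11 at 3.91 CPM against 0.983 and 0.621 CPM. The first 4T07 scaffold held 21 counts of Hoxa10 against 0 and 0 in the others of its group, and 22 of Hoxa9 against 4 and 3. It held 34 of Hoxa7 against 9 and 8, and 32 of Hoxd11 against 5 and 4. In the same library Mpo, a granule gene of myeloid precursors, was at 232 CPM against 40.9 and 24.4 CPM, and Rhox5 at 47.5 CPM against 5.11 and 1.40 CPM. Leaving it out left the count of Hox genes at 0 for 4T07 against control and for 4T1 against 4T07.

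Lungs were compared as the native metastatic site. The counts of Hox genes that passed against control were near what the shares of all genes would give. Of 23 genes tested, 1 was higher in 67NR lungs (4.25% of all 21937 genes passed), 1 was higher and 5 lower in 4T07 lungs (29% passed), and 0 passed in 4T1 lungs (4.61% passed). For 4T1 against control, 2 genes had an unadjusted p under 0.05 in edgeR, and DESeq2 called 0 with 1 under 0.05. Between 4T1 and 4T07 lungs 6 were higher (Hoxa5, Hoxa6, Hoxa7, Hoxb5, Hoxb7 and Hoxd11) and 2 lower (Hoxa9 and Hoxb9) in 4T1, where 23.5% of all genes passed. Median log2 differences against control were 0.52 in 67NR, -0.83 in 4T07 and 0.18 in 4T1 lungs, against 0.03, -0.01 and 0 over all genes, and 0.92 against 0.04 for 4T1 against 4T07. The comparisons share their control lungs or their 4T07 lungs.

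Hoxa9 was the gene that rose in 4T07 lungs. It was at 0, 0.18 and 0.162 CPM in control, 0.383, 0.162 and 0.289 CPM in 67NR, 2.96, 3.51 and 3.90 CPM in 4T07 and 0.805, 0.847 and 0.15 CPM in 4T1 lungs. All 3 lungs of 4T07 mice were above the other 9. Control lungs had 2 counts, and the ratio of 4T07 to control was 30.2 (95% counting interval 7.92 to 256), with an edgeR adjusted p of 6.32e-06. In the spleens of 4T07 mice the level was 3.09, 1.90 and 2.86 CPM, so the ranges of lungs and spleens of this group overlapped. Hoxb5 fell in these lungs, at 9.95, 9.29 and 18.4 CPM against 33.1, 35.2 and 37.2 CPM in control and 38.2, 36.4 and 40.2 CPM in 4T1 lungs, with a log2 difference from control of -1.42 ± 0.20 (SE), adjusted p = 5.68e-06. Hoxa2 was at 2.33, 1.03 and 1.95 CPM in 4T07 lungs against 4.41, 5.52 and 6.51 CPM in 67NR and 3.54, 2.68 and 4.50 CPM in 4T1 lungs, and Hoxb7 at 1.48, 0.206 and 0.868 CPM against 2.09, 3.79 and 2.10 CPM in control. Hoxb6 was at 0.847, 0 and 0.434 CPM against 2.09, 0.361 and 1.62 CPM in control lungs, and Hoxa4, with 1 count in 4T07 lungs, was the other lower gene. Hoxa5 was at 65.6, 59.9 and 101 CPM in 4T07 lungs, 177, 251 and 231 CPM in 67NR and 156, 166 and 155 CPM in 4T1 lungs. Its difference of 4T07 from control, -0.85 ± 0.18 with an adjusted p of 0.000661, stayed under the fold of 2, and 4T1 lungs were above 4T07 lungs by 1.03 ± 0.18 (SE), adjusted p = 0.000127, a call lost in 7 of the alternatives, DESeq2 among them.

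The 7 neutrophil markers were all higher in 4T07 and in 4T1 lungs, at 23592 to 28609 CPM and 11087 to 26046 CPM against 216 to 262 CPM in control lungs. The 6 lung epithelial markers summed to 5935 to 14756 CPM in 4T07 lungs, 4 of 6 being lower, against 35532 to 37744 CPM in control and 29078 to 36063 CPM in 4T1 lungs. Endothelial markers summed to 810.2 to 1335 CPM in 4T07 lungs, 4 of 5 lower, against 2677 to 2840.3 CPM in control lungs. Spleen stromal markers summed to 19.1 to 31.5 CPM in 4T07 lungs against 3.31 to 4.51 CPM in control lungs, with Ccl21a at 0 in both. Their part in the Hox differences was not tested. Of 9 TALE cofactors, 2 were lower in 4T07 lungs, Pknox2 (-1.51 ± 0.23) and Meis1 (-1.16 ± 0.16), where 29% of all genes passed. In 67NR and 4T1 lungs 0 passed, where 4.25% and 4.61% of all genes did.

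In 67NR lungs the gene that passed was Hoxd4, at 1.53, 2.76 and 1.45 CPM against 0.523, 1.08 and 0.324 CPM in control, a log2 difference of 1.47 ± 0.52 (SE), adjusted p = 0.0898. It rests on 35 and 11 counts, and the call was lost without 67NR lung 2, 67NR lung 3, control lung 1 or control lung 3. Without control lung 3 a count of 2 other genes passed, without each of the others 0 passed, and DESeq2 called 0. Hoxb4 was at 66.7, 61.9 and 78.4 CPM in 67NR lungs, above every control lung, but its log2 difference of 0.82 ± 0.18 (adjusted p = 0.00851) was under the fold of 2. Leaving out 4T07 lung 2 lowered the 4T07 count from 6 to 3 and the count of 4T1 against 4T07 from 8 to 5, and leaving out 4T1 lung 3 raised the count of 4T1 against control from 0 to 1. In 4T07 against control, the calls of Hoxa2, Hoxa4, Hoxb6 and Hoxb7 ended when one or another library was left out, and that of Hoxb5 held without each. In 4T1 against 4T07 those of Hoxa5, Hoxb7 and Hoxb9 did so, and that of Hoxa7 ended without 4T07 lung 2.

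Spleens, which the study used to stand in for blood, were compared in the same way. Hoxa9 rose in spleens of both 4T07 and 4T1 mice, and Hoxb2 and Hoxd11 fell in both. Of 23 genes tested, 0 passed in 67NR spleens (2.26% of all 21128 genes passed, with 0 Hox genes under an unadjusted p of 0.05 in edgeR or DESeq2 and 0 called by DESeq2). In 4T07 spleens 1 was higher and 3 lower, where 18.6% of all genes passed, and in 4T1 spleens 1 was higher and 4 lower, where 19.9% passed, counts that lie near those shares. With library totals in place of TMM factors the 4T1 count was 1 higher and 8 lower, and DESeq2 called 3. Between 4T1 and 4T07 spleens 0 passed, where 2.33% of all genes passed, with 3 genes under an unadjusted p of 0.05, and DESeq2 called 0 with 1 under 0.05. Median log2 differences were 0.18, -0.12 and -0.90 in 67NR, 4T07 and 4T1 spleens, against 0, -0.09 and -0.10 over all genes, and -0.61 against 0.05 for 4T1 against 4T07. The comparisons with control share the control spleens.

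Hoxa9 was at 0.583, 0.923 and 0.647 CPM in control, 0.838, 0.766 and 1.35 CPM in 67NR, 3.09, 1.90 and 2.86 CPM in 4T07 and 2.88, 1.47 and 3.43 CPM in 4T1 spleens. Each 4T07 and 4T1 spleen was above each control and 67NR spleen. The log2 difference from control was 1.99 ± 0.49 (SE), adjusted p = 0.00699 in 4T07 and 2.09 ± 0.49 (SE), adjusted p = 0.00457 in 4T1. Hoxb2, a hindbrain gene also used by blood progenitors, was at 1.94, 3.46 and 1.72 CPM in control and 2.51, 2.30 and 4.26 CPM in 67NR spleens, against 0.206, 0.518 and 0.286 CPM in 4T07 and 0.24, 0 and 0.228 CPM in 4T1 spleens. It was lower in 4T07, with a log2 difference of -2.49 ± 0.61 (SE), adjusted p = 0.00681, and 4T1 spleens had 2 counts, a ratio of control to 4T1 of 14.8 (95% counting interval 3.77 to 127). Hoxd11 was at 1.36, 2.08 and 1.08 CPM in control, 0, 0.69 and 0.286 CPM in 4T07 and 0, 0.245 and 0.228 CPM in 4T1 spleens, and Hoxd4 was at 1.75, 2.08 and 1.29, then 1.03, 0 and 0, then 0.24, 0.49 and 0.457 CPM in the same order and passed in 4T07. Hoxa3 was at 0.194, 1.62 and 0.647 CPM in control spleens with 0 counts in 4T1 spleens, at least 1.15-fold lower, and Hoxb1, with 10 counts in control and 0 in 4T1 spleens, was at least 1.01-fold lower. Hoxa5, by contrast, was at 15.4, 11.7 and 11.2 CPM in 4T07 and 9.35, 12.2 and 11.7 CPM in 4T1 spleens and did not pass.

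These spleens held more RNA of neutrophil and erythroid markers. The 7 neutrophil markers were all higher, at 25585 to 31157 CPM in 4T07 and 12627 to 33258 CPM in 4T1 spleens against 925 to 1641 CPM in control. The precursor genes Mpo and Elane were at 826 to 1107 and 428 to 483 CPM in 4T07 spleens, 374 to 976 and 187 to 475 CPM in 4T1 spleens and 8.41 to 15.7 and 3.88 to 8.08 CPM in control spleens. The 6 red pulp and erythroid markers summed to 36010.0 to 52385, 34456 to 37627 and 16585 to 19398 CPM in the same order. B-cell markers summed to 402 to 479, 283 to 494 and 1164 to 1623 CPM, and spleen stromal markers to 29.3 to 37.8, 30.2 to 54.1 and 86.6 to 95.9 CPM. The 5 macrophage markers were lower in sum, at 910 to 983, 608 to 859 and 1329 to 1912 CPM in that order. The 5 hematopoietic progenitor markers summed to 86.8 to 98.2, 65.6 to 73.1 and 78.8 to 84.1 CPM. Their part in the Hox differences was not tested. The calls rest on 10 to 36 counts of Hoxa9 per group, and 115 to 268 Hox counts per spleen. Leaving out control spleen 2 lowered the 4T07 count from 4 to 2 and the 4T1 count from 5 to 3, as leaving out 4T07 spleen 3 and 4T1 spleen 1 did for their own groups. Without 4T07 spleen 1 the count of 4T1 against 4T07 was 1. Hoxa9 held without each library in both comparisons, while Hoxd4 and Hoxd11 in 4T07 and Hoxb1 in 4T1 were lost without one or another, Hoxa3 without control spleen 2, and Hoxd11 in 4T1 without 4T1 spleen 1.

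**Figure D5:**
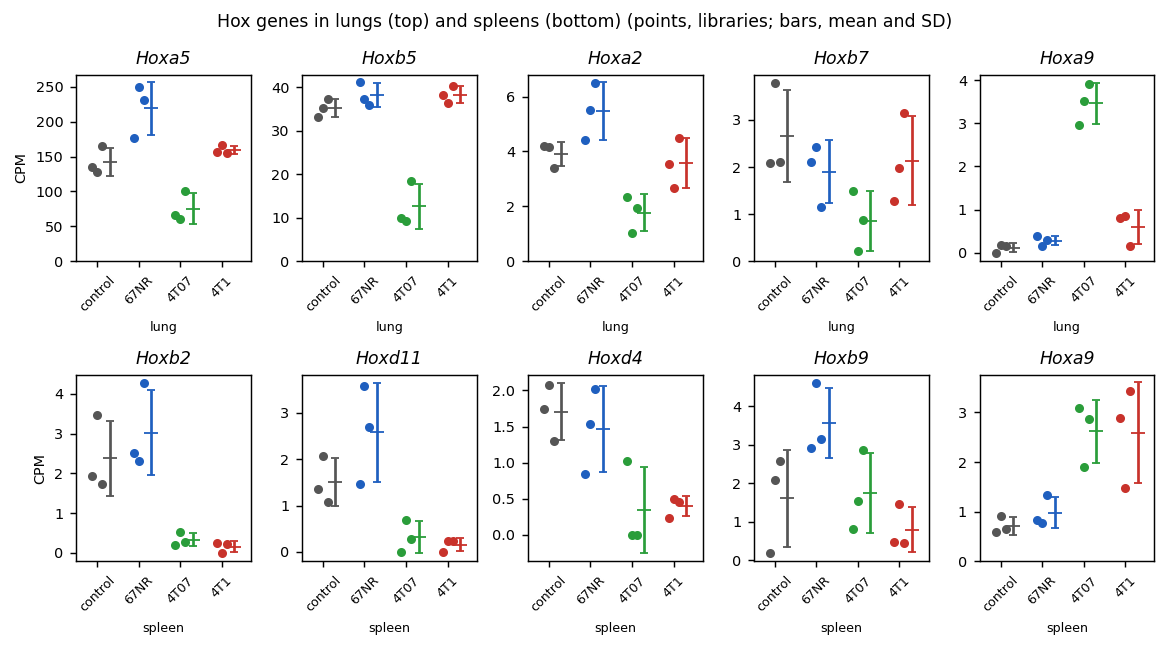
Levels of 5 Hox genes in lungs (top) and 5 in spleens (bottom) of control, 67NR, 4T07 and 4T1 mice, in CPM on a linear axis of its own for each panel. Points are the 3 libraries of a group and bars their mean and SD. Hoxa9 is at 2.96 to 3.90 CPM in 4T07 lungs against at most 0.18 CPM in control lungs, and at 1.47 to 3.43 CPM in 4T07 and 4T1 spleens against at most 0.923 CPM in control spleens.

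The change of 4T1 mice against control was finally compared between tissues as an interaction in a single fit of the 36 scaffold, lung and spleen libraries. Of 32 Hox genes tested, 0 differed between scaffold and lung (0.986% of all 26665 genes passed at an adjusted p under 0.10, 1 Hox gene had an unadjusted p under 0.05, and DESeq2 called 0 with 0 under 0.05). Between scaffold and spleen 4 differed, where 10.7% of all genes passed, and between lung and spleen 4 differed, where 11.5% passed. All 8 differences were positive, meaning that the gene changed upward in scaffold or lung relative to the spleen. Hoxa3, Hoxb2 and Hoxd4 are counted in both comparisons, which share the control and 4T1 spleens. For 4T1 against control within a tissue, 0 Hox genes passed in scaffolds, 0 in lungs and 5 in spleens. Hoxb2, for one, went from 1.05, 1.27 and 1.73 CPM in control to 1.47, 2.05 and 1.98 CPM in 4T1 scaffolds, whereas in spleens it went from 1.94, 3.46 and 1.72 to 0.24, 0 and 0.228 CPM. Its difference of changes was 3.79 ± 0.80 (SE), adjusted p = 0.0014 between scaffold and spleen and 2.63 ± 0.86 (SE), adjusted p = 0.045 between lung and spleen. Hoxd4 went from 7.55, 18.4 and 14.0 to 19.6, 27.0 and 21.9 CPM in scaffolds and from 0.523, 1.08 and 0.324 to 1.61, 1.27 and 0.75 CPM in lungs. Hoxa3, Hoxb1 and Hoxd11 passed as well, and Hoxa9, which rose in the spleens, did not pass between lung and spleen, with 2 counts in control and 12 in 4T1 lungs behind it. Leaving out control spleen 2 lowered the lung and spleen count from 4 to 2, with Hoxa3 and Hoxb2 lost, and Hoxb1 and, between lung and spleen, Hoxb2 and Hoxd4 were lost without one or another library.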

How the data were processed

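RNA was quantified in 45 samples of 15 groups, 3 per group, as counts deposited by the authors. Their QuantSeq 3′ mRNA libraries with a unique molecular identifier add-on were, per the submitters' processing notes, handled with Trim Galore 0.5.0, STAR 2.6.0 and featureCounts. The genome build, annotation, strand setting and collapsing of identifiers are not given in the sources used here. The table held 55487 lines, and 120 repeated symbols were added up to give 55367 genes.

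From these counts, edgeR 4.0.16 in R 4.3.3 was used with TMM factors, its quasi-likelihood test and Benjamini-Hochberg adjustment over all genes with more than 10 counts in the fit. Calls needed more than a 2-fold difference and an adjusted p below 0.05 between tissues and between tumors, or below 0.10 within a tissue and for interactions. DESeq2 1.42.0, which the study used, other scalings and filters, and leaving out each sample were alternatives. The test was tested on simulated data, where of 200 genes changed 4-fold 94.5% were recovered between lungs, 89.5% between scaffolds, 85% between 4T07 and 67NR tumors and 77% for the interaction of scaffold and lung. Of the edgeR calls there, 7.35%, 7.73%, 4.49% and 7.23% fell on unchanged genes, in that order. The changed genes were drawn from those expected to have several counts in the smallest library. The rates thus do not cover Hox genes near the floor. None of 45 replicate pairs was identical. The study gives 3 mice per condition, and no label ties tissues to a mouse. Standard errors were the log2 difference divided by the square root of the F statistic. Intervals from counts cover counting error only.

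Values in every library are given for members detected in a group and called in a comparison, and the rest by counts. Other lists are given by counts, naming at most 3 members. The gene family and the lists were chosen with earlier results of these data known, though the rule for members uses symbols alone. Promoter windows came from RefSeq on GRCm38.p6 and were matched by symbol. Figures used matplotlib 3.10.9. Some genes are not reported here by name, and they stay in the counts and sums.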

Additional observations from a re-analysis of the deposited data

Results flagged for a closer look

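The change of 4T1 mice against control differed between tissues for 5 Hox genes, by the interaction term of edgeR at an adjusted p below 0.10. Each value is the log2 change in the first tissue minus that in the spleen. Between scaffold and spleen it was 6.54 ± 1.94 (SE) for Hoxa3 (adjusted p = 0.0246), 5.84 ± 2.06 for Hoxb1 (adjusted p = 0.0633), 3.79 ± 0.80 for Hoxb2 (adjusted p = 0.0014) and 2.46 ± 0.75 for Hoxd4 (adjusted p = 0.0278). Between lung and spleen it was 5.82 ± 1.82 for Hoxa3 (adjusted p = 0.0324), 2.63 ± 0.86 for Hoxb2 (adjusted p = 0.045), 3.43 ± 1.05 for Hoxd11 (adjusted p = 0.0275) and 2.70 ± 0.91 for Hoxd4 (adjusted p = 0.0467). Hoxa3 and Hoxb1 had 0 counts in the 4T1 spleens, so the size of their fitted values depends on the prior count and is no bound. The same control and 4T1 spleens enter both differences. Between scaffold and spleen 4 Hox genes passed, where 10.7% of all 26665 genes did. Between lung and spleen 4 passed, where 11.5% of all genes did. Both counts lie near what these shares would give for the Hox genes tested.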

How the results depend on the processing

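The fewest counts stood behind the spleens, with 115 to 268 Hox counts each, though their totals overlapped those of the tumors, and thinning to the lowest total took the detected genes of 4T07 scaffolds from 20 to 13. No paired analysis was possible because the labels give no replicate numbers that the groups share and no link to mice. No call of a named Hox gene turned its direction under the alternatives run. Of the called values recomputed, DESeq2 kept 124 of 141 past the threshold and gave no adjusted p for 10 more, library totals kept 145 of 151, no count filter kept 144 of 151, fits of the compared groups alone kept 134 of 144, DESeq2 size factors kept 148 of 151, and leaving out 1 library kept 804 of 949. Library totals in place of TMM moved the median of all genes by -0.25 to 0.35 on the log2 scale. The cause was not tested for the other changes. With only genes of at least 10 counts in every library, so that few members were tested, the Hox counts were 2 (control lungs against spleens), 1 (control scaffolds against lungs), 1 (control scaffolds against spleens), 1 (4T07 against control lungs), 2 (4T1 against 4T07 lungs), 0 (67NR against control lungs), 0 (4T07 against control spleens), 0 (4T1 against control spleens), 3 (4T07 against 67NR tumors), 1 (4T1 against 4T07 tumors), 3 (4T1 against 67NR tumors), 2 (4T07 tumors against scaffolds), 3 (4T1 tumors against scaffolds), 2 (67NR tumors against scaffolds), 0 (4T1 change, lung minus spleen) and 0 (4T1 change, scaffold minus spleen). With DESeq2 they were 4 (4T1 against 4T07 lungs), 0 (67NR against control lungs), 2 (4T07 against control spleens), 3 (4T1 against control spleens) and 2 (4T1 change, scaffold minus spleen). With only the compared groups in the fit they were 0 (67NR against control lungs) and 5 (4T1 against 4T07 tumors). With library totals they were 1 (4T07 against control scaffolds) and 9 (4T1 against control spleens). Without a count filter they were 4 (4T1 against 4T07 scaffolds). Weighted by log2(CPM + 1), the mean paralog number was 5.42 (4T07 lung), 6.08 (4T07 spleen), 6.35 (4T07 tumor), 5.16 (4T1 lung), 5.66 (4T1 spleen), 6.21 (4T1 tumor), 4.94 (67NR lung), 5.64 (67NR scaffold), 5.84 (67NR spleen), 6.05 (67NR tumor), 5.17 (control lung) and 5.54 (control spleen). Without the gene of highest CPM it was 6.07 (4T07 scaffold), 6.12 (4T07 spleen), 6.72 (4T07 tumor), 4.87 (4T1 lung), 5.74 (4T1 scaffold), 5.91 (4T1 spleen), 6.81 (4T1 tumor), 4.58 (67NR lung), 5.73 (67NR scaffold), 5.95 (67NR spleen), 6.13 (67NR tumor), 4.88 (control lung) and 6.06 (control scaffold). Requiring at least 10 counts in each library, the number of detected Hox genes was 11 (4T07 scaffold), 3 (4T07 spleen), 7 (4T1 lung), 10 (4T1 scaffold), 2 (4T1 spleen), 6 (67NR lung), 11 (67NR scaffold), 3 (67NR spleen), 6 (67NR tumor), 10 (control scaffold) and 3 (control spleen). With libraries thinned to the lowest total it was 13 (4T07 scaffold), 7 (4T1 lung) and 9 (67NR lung). Leaving out 1 library at a time gave Hox counts of 9 to 12 (control lungs against spleens), 14 to 15 (control scaffolds against lungs), 13 to 16 (control scaffolds against spleens), 3 to 6 (4T07 against control lungs), 5 to 9 (4T1 against 4T07 lungs), 0 to 1 (4T1 against control lungs), 0 to 2 (67NR against control lungs), 0 to 2 (4T07 against control scaffolds), 0 to 1 (4T1 against 4T07 scaffolds), 0 to 0 (4T1 against control scaffolds), 0 to 0 (67NR against control scaffolds), 2 to 5 (4T07 against control spleens), 0 to 1 (4T1 against 4T07 spleens), 3 to 6 (4T1 against control spleens), 0 to 0 (67NR against control spleens), 9 to 14 (4T07 against 67NR tumors), 2 to 4 (4T1 against 4T07 tumors), 9 to 11 (4T1 against 67NR tumors), 10 to 14 (4T07 tumors against scaffolds), 17 to 20 (4T1 tumors against scaffolds), 12 to 14 (67NR tumors against scaffolds), 2 to 5 (4T1 change, lung minus spleen), 0 to 0 (4T1 change, scaffold minus lung) and 3 to 6 (4T1 change, scaffold minus spleen). For the mean paralog number it gave 4.94 to 5.01 (4T07 lung), 5.62 to 5.82 (4T07 scaffold), 5.65 to 5.92 (4T07 spleen), 6.19 to 6.28 (4T07 tumor), 4.93 to 4.96 (4T1 lung), 5.24 to 5.48 (4T1 scaffold), 5.18 to 5.29 (4T1 spleen), 5.60 to 5.63 (4T1 tumor), 4.81 to 4.84 (67NR lung), 5.37 to 5.40 (67NR scaffold), 5.29 to 5.51 (67NR spleen), 5.70 to 5.78 (67NR tumor), 4.93 to 4.98 (control lung), 5.57 to 5.81 (control scaffold) and 5.17 to 5.25 (control spleen).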

Other observations

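Other transcription factors that mark position separated the control tissues as well. Of 28 such factors listed, Nkx2-1, which specifies lung epithelium, was at 20.7, 21.3 and 23.5 CPM in control lungs and 0, 0 and 0 CPM in control scaffolds, and Tbx4, a gene of the lung bud and hindlimb, was at 77.6, 81.0 and 106 and 1.05, 0.317 and 0 CPM. Between scaffolds and lungs 10 of 22 tested were higher and 7 lower in scaffolds by edgeR, where 30% of all genes passed. Tbx15, a gene of dorsal skin and limb mesenchyme, was at 13.8, 19.6 and 20.3 CPM in control scaffolds and 0, 0 and 0 CPM in spleens, where 12 of 22 factors were higher and 4 lower in scaffolds and 31.5% of all genes passed.

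Among tumors 21 of these factors were tested. Against 67NR, 5 were higher and 3 lower in 4T07, where 28.9% of all genes passed, and 6 were higher and 2 lower in 4T1, where 20.7% passed, which is 38.1% of the factors in each. Pitx1, the hindlimb factor, was at 0, 0 and 0.847 CPM in 67NR, 51.4, 80.9 and 64.3 CPM in 4T07 and 9.33, 14.8 and 12.7 CPM in 4T1 tumors. Foxc2, a mesenchyme gene, was at 0.269, 0 and 0, then 0.201, 0 and 0, then 22.3, 18.9 and 22.2 CPM. Of 17 retinoic acid genes listed, the pathway that sets Hox boundaries in the embryo, 6 of 14 tested were higher and 0 lower than in 67NR tumors in each of the 2 lines. All these comparisons share the 67NR tumors, and the lists were chosen with results of these data known.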
